A study of Homo sapiens with 12 samples.

Results

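Polycomb and Trithorax proteins hold genes in a silent or an active state, and the HOX clusters are their best-known targets. The 10 regulators described here are EZH1, EZH2, EED, SUZ12, JARID2, RNF2, RING1, BMI1, CBX2 and KMT2A. They were chosen by gene symbol, as 10 of the 38019 rows of the deposited gene table. The values come from RNA-seq of the human embryonic kidney line HEK293T, harvested 24 h after transient transfection with FuGENE. There were 3 libraries of cells transfected with FLAG-NRF1, 3 with FLAG-NRF2, 3 with FLAG-NRF3 and 3 with empty vector, and the labels describe the replicates as independent experiments. The NRF1 and NRF3 transgenes were truncated to lack the N-terminal sequence that sends the protein to the endoplasmic reticulum and were codon-optimized. The NRF2 transgene carried the T80D substitution, which weakens binding of NRF2 to its repressor KEAP1. All libraries thus measured forced expression of an active transgene, or of the vector, in a transfected population that may also hold untransfected cells.

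NRF1, NRF2 and NRF3 are cap'n'collar transcription factors that pair with small MAF proteins and bind antioxidant response elements. Polycomb repressive complex 2 (PRC2) methylates histone H3 through EZH2 or its paralog EZH1, with EED and SUZ12 as the other core subunits and JARID2 as an accessory subunit that helps bring the complex to its targets. Polycomb repressive complex 1 (PRC1) attaches ubiquitin to histone H2A through RNF2 or RING1. BMI1 is a partner of these ligases, and CBX2 is a chromodomain subunit that reads the mark left by PRC2. KMT2A, also called MLL, is a Trithorax methyltransferase of histone H3 that keeps HOX genes active.

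Total counts were 13700620 to 13810535 with NRF1, 13825932 to 14014316 with NRF2, 13452524 to 13772286 with NRF3 and 13573453 to 13595481 with empty vector. The NFE2L2 row, which encodes NRF2, held 133115 to 158028 counts with NRF2 and 1210 to 1322 with empty vector. The NFE2L1 row, which encodes NRF1, held 1353 to 1549 counts with NRF1, 1437 to 1763 with NRF2, 1072 to 1523 with NRF3 and 1297 to 1373 with empty vector. The NFE2L3 row, which encodes NRF3, held 539 to 572 counts with NRF1, 487 to 564 with NRF2, 487 to 541 with NRF3 and 441 to 486 with empty vector. Neither row was thus highest with its own transgene, codon-optimized transgenes need not be counted there, and these rows do not check the NRF1 and NRF3 labels. All 10 markers of the HEK293 lineage had a mean of at least 10 counts, as did 3 of 10 markers of other cell types, while CDH5, MYOG and INS were at 0 in every library. The NRF3 libraries differed most among themselves, with a median SD of 0.19 on the log2 scale over all tested genes, against 0.09 with empty vector. In bulk RNA, fewer cells of a kind and less RNA per cell cannot be told apart.

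Of the 10 regulators, 9 were among the 15135 genes that passed the filter on low counts and were tested. The BMI1 row held no count in any of the 12 libraries. None of the 9 passed the test with any transgene, at an adjusted p under 0.05 in the quasi-likelihood test of edgeR after Benjamini-Hochberg adjustment over all tested genes. With NRF1 0 of 9 were called while 1.75% of all tested genes were, with NRF2 0 of 9 against 10.5%, and with NRF3 0 of 9 against 0.0264%. These shares of all genes depended on single libraries. With NRF1 the share was 0.218% to 0.548% without any library of empty vector or without NRF1 replicate 2 or 3, 3.94% without NRF3 replicate 2, 3.55% without NRF3 replicate 3 and 12.9% in a fit of only the 2 groups. With NRF2 it was 5.19% to 6.75% without any library of empty vector or NRF2. It was 14.9% without NRF3 replicate 2, 14% without NRF3 replicate 3 and 18% in a fit of only the 2 groups. With NRF3 it was 0.0396% without NRF3 replicate 2 or 3. At an unadjusted p under 0.05 edgeR gave 2 regulators with NRF1, where 17.4% of all genes were below it, 1 with NRF2 against 24.5%, and 0 with NRF3 against 4.11%. DESeq2 also called 0 of 9 in each of the comparisons, where its calls took in 2.75% of all genes for NRF1, 9.88% for NRF2 and 0.0529% for NRF3. The median log2 fold change of the 9 was -0.07 with NRF1, -0.06 with NRF2 and -0.03 with NRF3, while the median of all tested genes lay between -0.01 and 0.00.

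The precision of these comparisons was set by the libraries as well as by the counts. Of the 27 log2 fold changes against empty vector, 22 had a 95% interval that stayed within 0.5 on either side of 0, a change of 1.41-fold. The other 5 belonged to JARID2 and KMT2A. The same 3 empty vector libraries stand in all 3 comparisons, so these share the error of their controls.

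**Figure D1:**
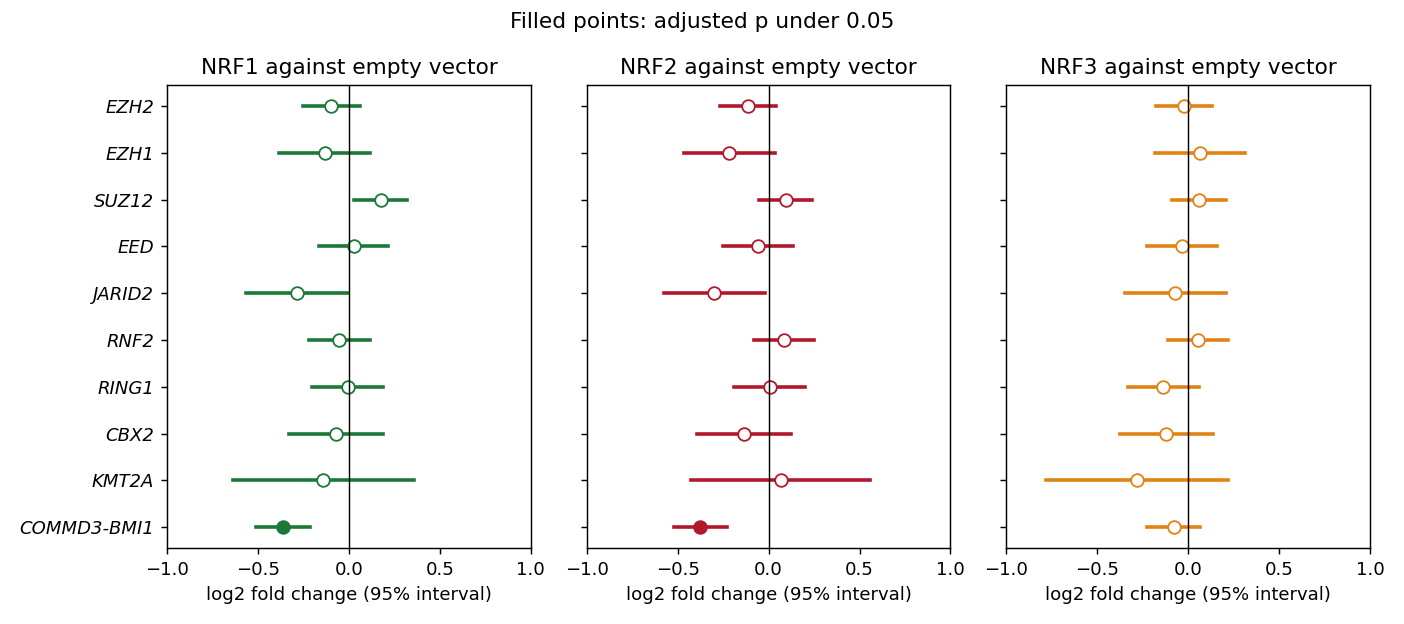
Log2 fold change of each tested regulator (rows) with NRF1, NRF2 and NRF3 against empty vector (panels), with lines for the 95% interval and filled points for an adjusted p under 0.05. The 9 regulators have open points in each panel, KMT2A has the widest interval, and the filled points are those of the COMMD3-BMI1 row with NRF1 (-0.36) and NRF2 (-0.37).

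Levels of the regulators were compared with each other only after division by the length of the longest annotated transcript. In empty vector cells the methyltransferases EZH1 and KMT2A were lowest, at 2.20 ± 0.17 and 2.40 ± 0.35 CPM per kb (CPM being counts relative to the scaled library total, SD, n = 3), and their ranges overlapped. JARID2 followed at 6.58 ± 0.22, CBX2 at 9.53 ± 0.63, RNF2 at 16.7 ± 0.51, EED at 21.5 ± 1.28 and RING1 at 26.5 ± 1.53 CPM per kb. EZH2 and SUZ12 were highest at 38.1 ± 1.91 and 41.0 ± 1.53 CPM per kb, again with overlapping ranges. Apart from these neighbouring pairs, each step in the order was larger than the spread over the 3 libraries. Thus EZH2 was far above EZH1, its paralog, and RING1 above RNF2 per unit of transcript length.

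Among the PRC2 core subunits, SUZ12, the scaffold that the other subunits assemble on, had the smallest unadjusted p with NRF1. It was measured at 198, 214 and 211 CPM in NRF1 cells, against 191, 177 and 184 CPM in empty vector cells. All 3 NRF1 libraries lay above all 3 empty vector libraries, as was so in either direction for 30.9% of tested genes. The log2 fold change was 0.17 ± 0.07 (SE, 95% interval 0.03 to 0.32), with an unadjusted p of 0.0225 and an adjusted p of 0.209 by edgeR's quasi-likelihood test. With NRF2 SUZ12 was at 188, 204 and 198 CPM and with NRF3 at 182, 208 and 184 CPM. Both groups overlapped with empty vector. SUZ12 was called with NRF1 in 2 of 23 alternative settings, a fit of only these 2 groups (edgeR adjusted p = 0.0264) and limma with a spread of its own for each group (adjusted p = 0.0447). In the NRF1 comparison these settings called 12.9% and 10.1% of all genes.

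EZH2, the main methyltransferase of PRC2 in dividing cells, averaged 129.8 ± 8.38 CPM with NRF1, 128 ± 5.13 with NRF2, 137 ± 9.45 with NRF3 and 139 ± 6.95 with empty vector (SD, n = 3 each). Its log2 fold changes were -0.10, -0.11 and -0.02 with NRF1, NRF2 and NRF3, and the 3 lower bounds of the 95% intervals were -0.25, -0.27 and -0.18. A fall of EZH2 mRNA beyond 0.27 on the log2 scale is thus outside the intervals. EZH1, which takes the place of EZH2 in many resting cells, had only 115 to 152 counts per library. It stood at 10.3, 9.15 and 8.36 CPM with NRF1, at 9.45, 8.49 and 8.31 CPM with NRF2, at 10.7, 9.82 and 11.5 CPM with NRF3, and at 11.0, 9.45 and 10.0 CPM with empty vector. Each transgene group overlapped with empty vector, and the log2 fold change with NRF2 was -0.22 ± 0.12 (SE; edgeR adjusted p = 0.283). The log2 ratio of EZH2 to EZH1 within a library averaged 3.81 ± 0.06 with NRF1, 3.88 ± 0.15 with NRF2, 3.68 ± 0.04 with NRF3 and 3.77 ± 0.11 with empty vector (SD, n = 3 each), and the ranges of each transgene and empty vector overlapped.

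EED, the PRC2 subunit that binds the methylated histone tail, averaged 60.6 ± 2.63 CPM with NRF1, 57.3 ± 2.27 with NRF2, 58.2 ± 8.14 with NRF3 and 59.5 ± 3.55 with empty vector. The log2 fold changes were 0.03, -0.06 and -0.03, and the ranges overlapped in all 3 comparisons. JARID2, the accessory subunit, was at 29.2, 29.1 and 35.0 CPM in NRF1 cells and at 34.5, 27.1 and 30.8 CPM in NRF2 cells, against 37.3, 37.0 and 39.4 CPM in empty vector cells. All 3 libraries of NRF1 and all 3 of NRF2 lay below the lowest empty vector library. In the NRF2 comparison 35.4% of tested genes had groups that did not overlap, in either direction.

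The log2 fold change of JARID2 was -0.28 ± 0.13 with NRF1 (95% interval -0.56 to -0.01, adjusted p = 0.279) and -0.30 ± 0.13 with NRF2 (95% interval -0.58 to -0.02, adjusted p = 0.174; edgeR's quasi-likelihood test, SE). The unadjusted p values were 0.0460 and 0.0379. NRF3 libraries spread from 29.3 to 44.8 CPM and spanned the empty vector range. JARID2 was called lower with NRF1 in 1 of 23 alternative settings, the fit of only these 2 groups (edgeR adjusted p = 0.0133). That fit called 12.9% of all genes. With NRF2 JARID2 was called in 3 of 23. They were the fit of only the 2 groups (edgeR adjusted p = 0.0191), limma with group weights (0.0462) and edgeR without NRF3 replicate 2 (0.0403). In the NRF2 comparison these settings called 18%, 17.4% and 14.9% of all genes.

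**Figure D2:**
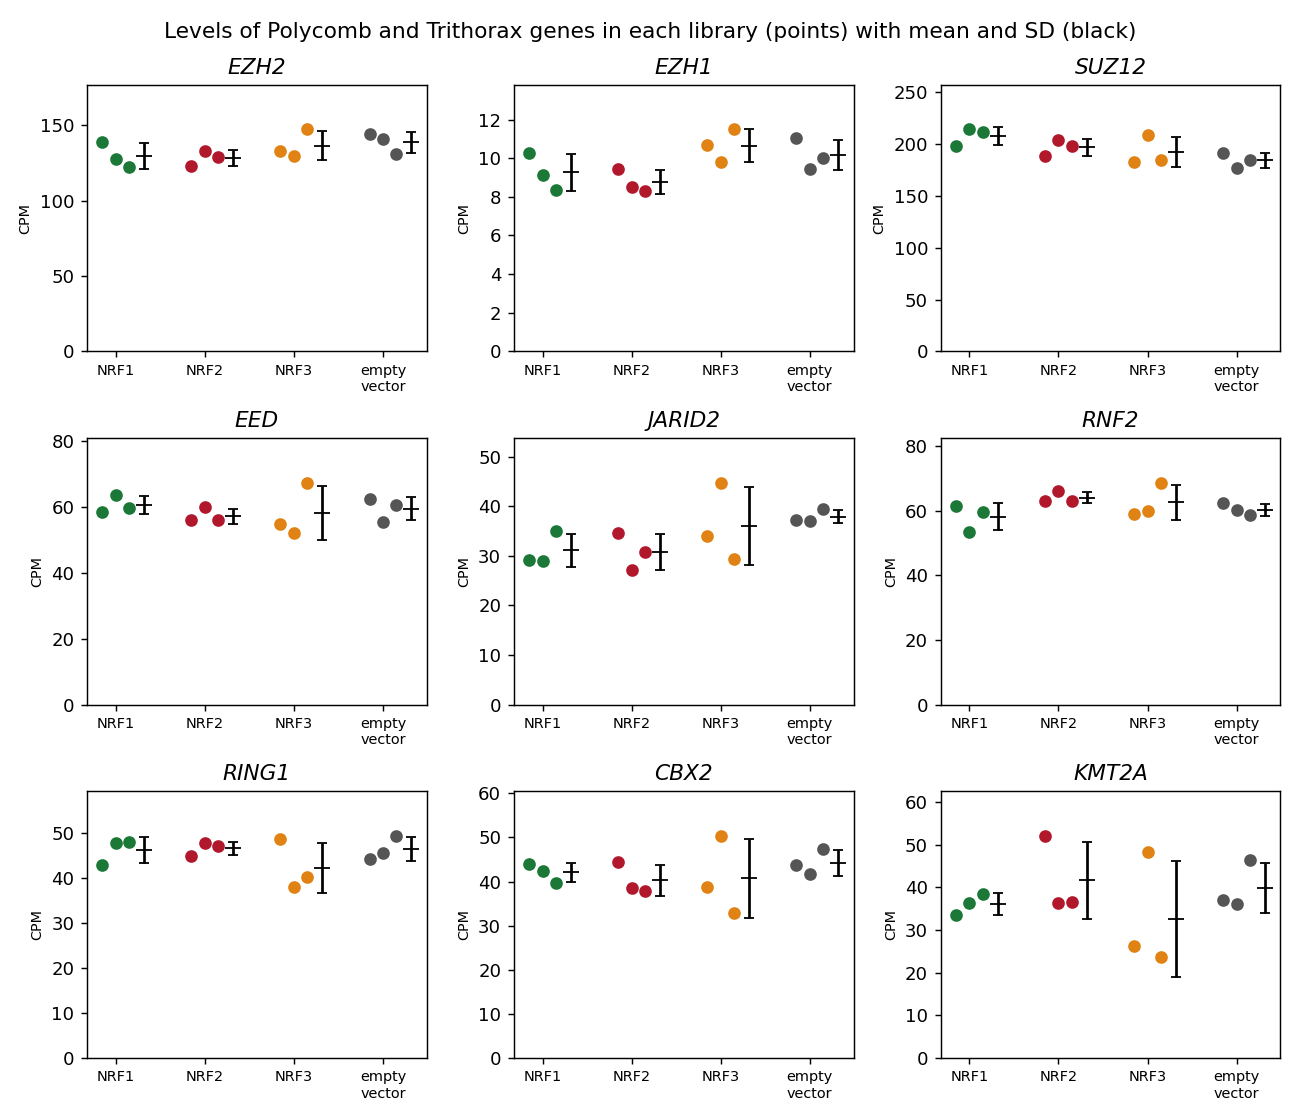
CPM of each tested regulator in every library (points, zero-based axes), with the mean and SD of each group in black. SUZ12 lies higher in all 3 NRF1 libraries and JARID2 lower in all NRF1 and NRF2 libraries than with empty vector, and the NRF3 points of KMT2A, CBX2 and JARID2 are the most scattered.

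Both catalytic subunits of PRC1 were measured with narrow intervals. RNF2, the main PRC1 ligase in many cells, was at 62.9, 66.1 and 63.0 CPM in NRF2 cells, against 62.2, 60.1 and 58.5 CPM in empty vector cells. The NRF2 libraries were all above those of empty vector, but only by a log2 fold change of 0.09 ± 0.08 (SE; edgeR adjusted p = 0.536). In this comparison 35.4% of tested genes had groups that did not overlap, in either direction. RNF2 averaged 58.1 ± 4.18 CPM with NRF1 and 62.5 ± 5.35 with NRF3, both overlapping with empty vector. RING1, its paralog, averaged 46.3 ± 2.89 CPM with NRF1, 46.6 ± 1.50 with NRF2, 42.3 ± 5.65 with NRF3 and 46.5 ± 2.68 with empty vector, and its log2 fold changes with NRF1 and NRF2 were -0.01 and 0.01. With NRF3 RING1 was at 48.7, 38.0 and 40.2 CPM, a wide range around a log2 fold change of -0.14 ± 0.09 (SE; edgeR adjusted p = 0.994). The log2 ratio of RNF2 to RING1 was 0.33 ± 0.18 with NRF1, 0.46 ± 0.04 with NRF2, 0.57 ± 0.26 with NRF3 and 0.38 ± 0.12 with empty vector, with overlapping ranges.

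CBX2 was at 44.0, 42.5 and 39.8 CPM with NRF1, at 44.4, 38.5 and 37.9 CPM with NRF2, at 38.8, 50.4 and 32.9 CPM with NRF3, and at 43.7, 41.6 and 47.4 CPM with empty vector. The groups overlapped in each comparison, and the log2 fold changes were -0.07, -0.14 and -0.12. Of the NRF3 libraries, replicate 2 was the highest and replicate 3 the lowest of all 12.

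KMT2A was the regulator whose libraries varied most. It was at 33.6, 36.2 and 38.5 CPM with NRF1, at 52.2, 36.4 and 36.5 CPM with NRF2, at 26.2, 48.4 and 23.6 CPM with NRF3, and at 37.0, 36.0 and 46.5 CPM with empty vector. NRF2 replicate 1, NRF3 replicate 2 and empty vector replicate 3 were high, and the other NRF3 libraries were lower than any library of another group. The log2 fold changes were -0.14 ± 0.23 with NRF1, 0.07 ± 0.23 with NRF2 and -0.28 ± 0.23 with NRF3 (SE), and the NRF3 interval ran from -0.78 to 0.22.

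In NRF3 replicate 2 and NRF2 replicate 1, where KMT2A was high, the values of genes with long transcripts were high too. NRF3 replicate 2 lay 0.64 above the NRF3 mean for KMT2A on the log2 scale, and the top quartile of genes by transcript length lay a median of 0.16 above theirs in that library. NRF3 replicate 3 lay 0.39 below for KMT2A (-0.39), with -0.10 for the long genes, and NRF2 replicate 1 lay at 0.34, with 0.08 for the long genes. Empty vector replicate 3 lay at 0.23 for KMT2A, with only 0.02 for the long genes. The longest KMT2A transcript has 16628 bases, above 99.5% of the 13406 genes with a length, and the part of transcript length in the KMT2A values was not tested. NRF3 replicate 2 was also high for JARID2 (0.33) and CBX2 (0.33). By length CBX2 is only at percentile 66.0, and by transcript GC content at 84.6. The top quartile of genes by GC content deviated too, by -0.10 in NRF3 replicate 3, 0.04 in replicate 2 and 0.06 in replicate 1. The part of GC content was not tested. Without NRF3 replicate 2, KMT2A was called higher with NRF2 than with NRF3 (log2 fold change 0.75, edgeR adjusted p = 0.00467, against 0.35 and 0.424 with all libraries) and with NRF1 than with NRF3 (0.54 and 0.0456, against 0.14 and 0.819). In 5 of the 12 libraries the KMT2A count was not a whole number, and annotated exons of a gene that has no row in the table overlap it on the same strand.

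**Figure D3:**
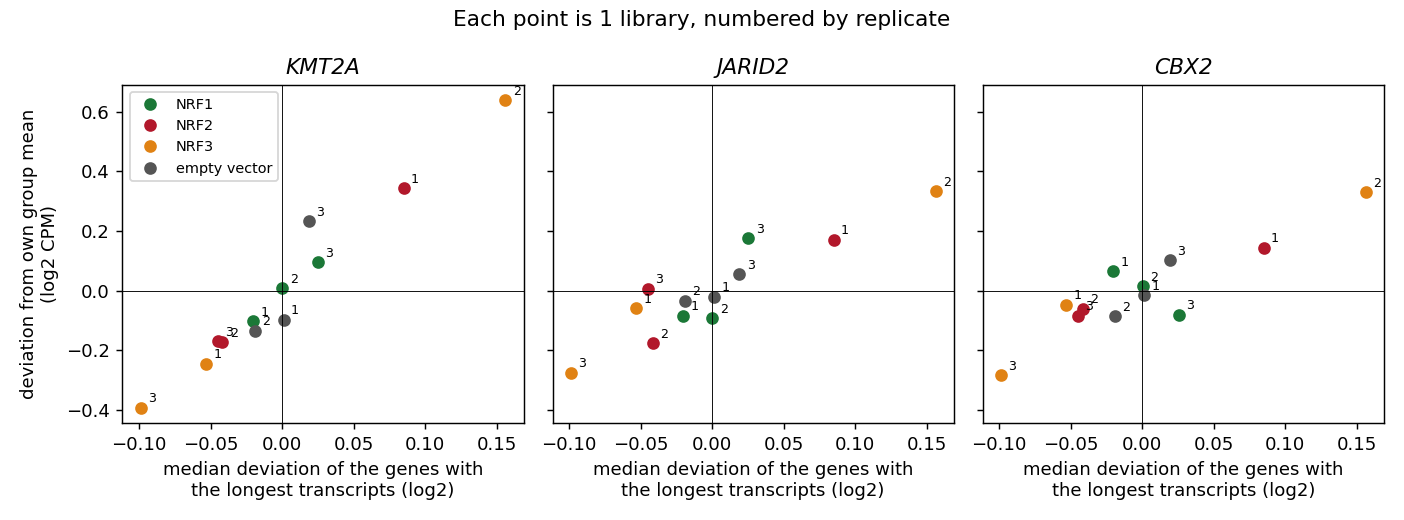
Deviation of KMT2A, JARID2 and CBX2 from the mean of their own group (vertical axes, log2 CPM) against the median deviation of the top quartile of genes by transcript length (horizontal axes, log2), each point being 1 of 12 libraries numbered by replicate. NRF3 replicate 2 is at the top right in all 3 panels (0.64, 0.33 and 0.33) and NRF3 replicate 3 at the bottom left.

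Direct comparisons between the transgenes gave the same count. By edgeR 0 of 9 regulators were called between NRF2 and NRF1, where 1.25% of all genes were, 0 of 9 between NRF2 and NRF3 against 5.17%, and 0 of 9 between NRF1 and NRF3 against 0.396%. DESeq2 called 0 as well, against 1.5% of all genes between NRF2 and NRF1, 5.54% between NRF2 and NRF3 and 0.806% between NRF1 and NRF3. Without NRF3 replicate 2 the share of all genes called was 2.11% between NRF2 and NRF1, 20.4% between NRF2 and NRF3 and 8.9% between NRF1 and NRF3, and KMT2A was then called in the comparisons with NRF3, as given above. Between NRF2 and NRF1 the share was 2.02% without NRF3 replicate 3. Between NRF2 and NRF3 it was 2.29% to 3.09% without NRF3 replicate 1 or any library of NRF2. Between NRF1 and NRF3 it was 0.0198% to 0.258% without any library of empty vector, NRF1 replicate 2 or 3, NRF2 replicate 2 or 3, or NRF3 replicate 1. At an unadjusted p under 0.05 edgeR gave 0 regulators between NRF2 and NRF1 (10.7% of all genes), 1 between NRF2 and NRF3 (20.5%) and 0 between NRF1 and NRF3 (11.7%). That regulator was EZH1, with 9.45, 8.49 and 8.31 CPM in NRF2 cells against 10.7, 9.82 and 11.5 CPM in NRF3 cells. The log2 fold change was -0.28 ± 0.12 (SE, adjusted p = 0.187 by edgeR), and all NRF2 libraries were lower than all NRF3 libraries, which was so in either direction for 19.8% of tested genes.

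BMI1, the PRC1 subunit that stimulates the RNF2 and RING1 ligases, had a row listed at no count in all 12 libraries. A count of 0 allows up to 3 counts per library by counting error alone. The BMI1 gene on chromosome 10 lies just downstream of COMMD3, a gene of a protein complex for endosomal sorting, on the same strand, and transcripts that run through both are annotated as a gene of their own, COMMD3-BMI1. In the GENCODE v29 annotation all 978 coding bases of BMI1 are also exonic bases of COMMD3-BMI1. Of the exonic bases of COMMD3-BMI1, 1000 (52.5%) are shared with BMI1 and 904 (47.5%) with COMMD3. The 1000 shared bases are 23.3% of the 4283 exonic bases of BMI1 in this annotation, which is not the build of the counts. The cause of the empty row was not tested.

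The COMMD3-BMI1 and COMMD3 rows did hold counts. Neither row was whole in any library, but their sum was a whole number in 12 of 12 libraries within 0.002, and COMMD3-BMI1 took 74.6% to 79.3% of it. Of 122 read-through rows in the table whose separate genes also have rows, 28 had a downstream gene without a count in any library, and 19 of these 28 read-through rows had a mean count of at least 100. Empty rows were also common over the whole table, where 26780 of 38019 rows held any count after rounding. By these counts, empty downstream rows at read-through loci (28 of 122) were not more common than empty rows over the whole table. The difference was not tested, and only the count over the whole table was taken after rounding. The COMMD3-BMI1 row is described here beside the empty BMI1 row. Whether reads of BMI1 transcripts were counted in it cannot be read from the table, so its values are not a measurement of BMI1.

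The sequences upstream of the 2 annotated starts are shown because transcripts of the locus begin at both. They are the 250 bases before the COMMD3 start, which is also the start of COMMD3-BMI1, at chr10:22316138-22316387, and before the more upstream of the annotated BMI1 starts, at chr10:22320849-22321098, both on the + strand of GRCh38.p14 and from RefSeq. The starts are 4711 bases apart. Capitals mark CACGTG, an E-box picked after the sequences were seen, which occurs in 7.26% of all 35116 RefSeq windows of 250 bases before and 50 after a start.
COMMD3: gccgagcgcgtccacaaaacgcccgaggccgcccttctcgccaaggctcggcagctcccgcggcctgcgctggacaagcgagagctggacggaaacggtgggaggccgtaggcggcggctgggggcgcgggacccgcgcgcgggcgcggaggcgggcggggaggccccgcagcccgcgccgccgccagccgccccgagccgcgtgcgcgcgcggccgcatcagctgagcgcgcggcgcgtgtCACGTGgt
BMI1: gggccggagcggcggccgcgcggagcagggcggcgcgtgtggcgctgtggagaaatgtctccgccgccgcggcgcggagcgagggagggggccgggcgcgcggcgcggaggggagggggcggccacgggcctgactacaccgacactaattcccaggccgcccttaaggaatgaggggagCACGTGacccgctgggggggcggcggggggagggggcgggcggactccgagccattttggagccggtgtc
The antioxidant response element core, TGACNNNGC on either strand, was in 0 of 12 windows of the 9 regulators found in the RefSeq table (CBX2 was not among them) and in 13.3% of all windows.

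COMMD3-BMI1 was lower with NRF1 and with NRF2. It was measured at 91.9, 89.1 and 84.7 CPM in NRF1 cells and at 90.4, 89.2 and 84.1 CPM in NRF2 cells, against 119, 108 and 115 CPM in empty vector cells. All 6 of these transgene libraries lay below the lowest empty vector library. Groups did not overlap, in either direction, for 30.9% of tested genes with NRF1 and 35.4% with NRF2. The row fell by 22.2% with NRF1 (-0.36 ± 0.07 on the log2 scale, adjusted p = 0.0172) and fell by 22.8% with NRF2 (-0.37 ± 0.07, adjusted p = 0.00260; edgeR's quasi-likelihood test, SE). With NRF3 it averaged 107.7 ± 5.86 CPM, against 114 ± 5.98 with empty vector (SD, n = 3 each), and was not called (log2 fold change -0.08 ± 0.07, adjusted p = 0.994). NRF2 and NRF1 differed by -0.01 (95% interval -0.16 to 0.14). NRF2 was lower than NRF3 by a log2 fold change of -0.29 ± 0.07 (adjusted p = 0.0202 by edgeR), and NRF1 against NRF3 gave -0.28 ± 0.07 (adjusted p = 0.110).

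The COMMD3 row had similar log2 fold changes of -0.32 with NRF1 (edgeR adjusted p = 0.154) and -0.36 with NRF2 (adjusted p = 0.0492). It was at 25.8, 26.6 and 25.3 CPM with NRF2, against 35.2, 32.1 and 32.2 CPM with empty vector. The COMMD3 and COMMD3-BMI1 rows are not independent, as their counts were whole only when summed. The COMMD3 call with NRF2 held in 11 of 22 alternative settings and was lost without any library of empty vector or NRF2, NRF1 replicate 2 or 3, or NRF3 replicate 1 (0.0566 to 0.181). With the 3 rows of the locus summed, a choice made after seeing the data, the fold changes were -0.35 with NRF1 (adjusted p = 0.0214) and -0.37 with NRF2 (adjusted p = 0.00350), both by edgeR. The call of the COMMD3-BMI1 row with NRF2 held in 23 of 23 alternative settings. That count includes the fit of the summed rows, which does not test the row by itself. The call of this row with NRF1 held in 19 of 23, counted the same way. It was lost without empty vector replicate 1 (edgeR adjusted p = 0.0954) or 3 (0.0856) and without NRF1 replicate 2 (0.0978) or 3 (0.125).

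**Figure D4:**
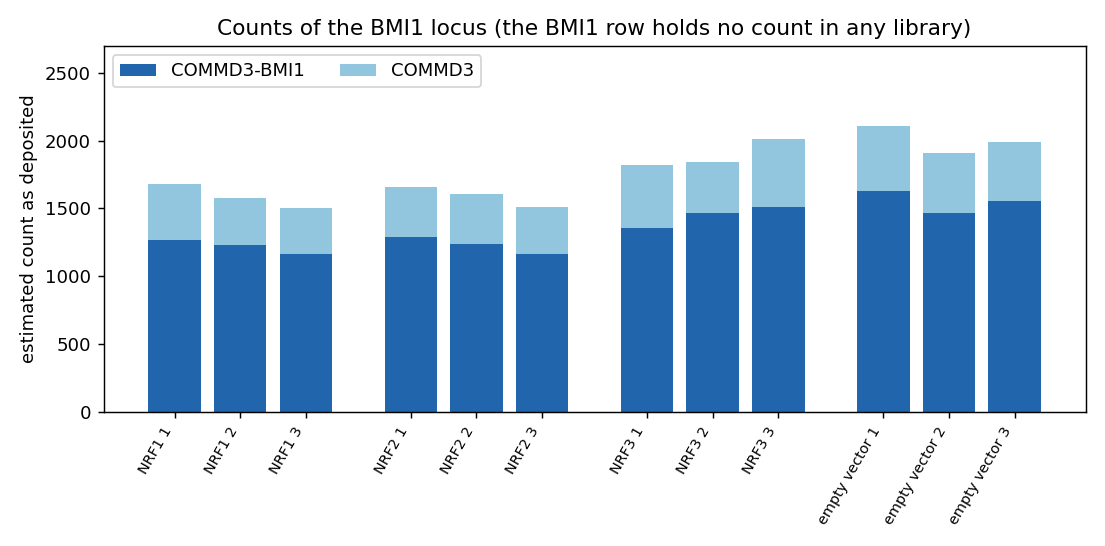
Deposited estimated counts of the COMMD3-BMI1 row (dark) and the COMMD3 row (light) in each library, stacked from 0. The stacks reach 1501 to 1683 with NRF1, 1513 to 1659 with NRF2, 1820 to 2012 with NRF3 and 1907 to 2105 with empty vector, and the BMI1 row adds nothing to any of them.

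The wider Polycomb and Trithorax machinery was read from a list of 91 other genes, of which 90 were tested. With NRF1 0 of 90 were called, against 1.75% of all genes. With NRF2 1 was higher and 4 were lower (5.56%, against 10.5% of all genes, of which 4.68% higher and 5.81% lower). With NRF3 0 of 90 were called, against 0.0264% of all genes. The medians of the 90 log2 fold changes were 0.02, 0.02 and -0.04. By role, no gene was called among the other PRC2 core subunits (2 tested), PRC2 accessory subunits (6), other core PRC1 subunits (5), PRC1 chromodomain and polyhomeotic proteins (9), the PR-DUB deubiquitinase (10), methyltransferases of the MLL/COMPASS type (5) and their shared subunits (13), demethylases of the Polycomb and Trithorax marks (6) and BAF remodelers (12).

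The called genes belonged to variant PRC1 (3 of 10) and to the other Trithorax and elongation factors (2 of 12). BCOR, a corepressor that forms a variant PRC1, averaged 203 ± 29.6 CPM with NRF2 and 301.5 ± 19.1 with empty vector (SD, n = 3 each), a log2 fold change of -0.57 ± 0.14 (SE, edgeR adjusted p = 0.0199). AUTS2, which joins another variant PRC1, averaged 37.9 ± 4.29 CPM with NRF2 and 53.3 ± 2.38 with empty vector (log2 fold change -0.49, edgeR adjusted p = 0.0100). E2F6, a DNA-binding repressor subunit of variant PRC1, was the gene that rose, with 36.2 ± 1.91 CPM with NRF2 and 30.4 ± 1.13 with empty vector (0.25, adjusted p = 0.0456).

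MLLT3 and MLLT10, reader proteins that work with the elongation machinery and the DOT1L methyltransferase and are fusion partners of KMT2A in leukemia, were both lower with NRF2. MLLT3 averaged 40.2 ± 0.95 CPM with NRF2 and 52.8 ± 2.60 with empty vector (log2 fold change -0.39, edgeR adjusted p = 0.00434). MLLT10 averaged 54.1 ± 2.77 CPM with NRF2 and 65.5 ± 1.27 with empty vector (-0.28, adjusted p = 0.0365). These genes moved the same way with NRF1, though none was called there in the main analysis. The NRF1 log2 fold changes were -0.35 for BCOR, -0.26 for AUTS2 and 0.12 for E2F6 (edgeR adjusted p = 0.219, 0.237 and 0.451). They were -0.30 for MLLT3 and -0.17 for MLLT10 (0.0571 and 0.277). MLLT3 was called lower with NRF1 in 7 of 23 alternative settings, among them DESeq2 (adjusted p = 0.0302). BCOR and AUTS2 were called with NRF1 in 2 of 23 settings each, and MLLT10 and E2F6 in 0. Between NRF2 and NRF1 0 of the 90 pathway genes were called by edgeR, against 1.25% of all genes. Between NRF2 and NRF3 1 was higher and 2 were lower (3.33%, against 5.17% of all genes). The lower ones were MLLT3 (edgeR adjusted p = 0.0109) and AUTS2 (0.0202). Between NRF1 and NRF3 0 of 90 were called, against 0.396%. With NRF2 against empty vector, the call of MLLT3 held in 23 of 23 alternative settings, AUTS2 in 22, BCOR in 18, MLLT10 in 15 and E2F6 in 11. AUTS2 was lost without NRF2 replicate 2 (adjusted p = 0.0538) and BCOR without empty vector replicate 2 or 3 or NRF2 replicate 2 or 3 (0.0525 to 0.0799). MLLT10 was lost without any library of empty vector or NRF2, or without NRF1 replicate 2 (0.0567 to 0.136), and E2F6 without any library of empty vector, NRF1 or NRF2 (0.0557 to 0.165).

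**Figure D5:**
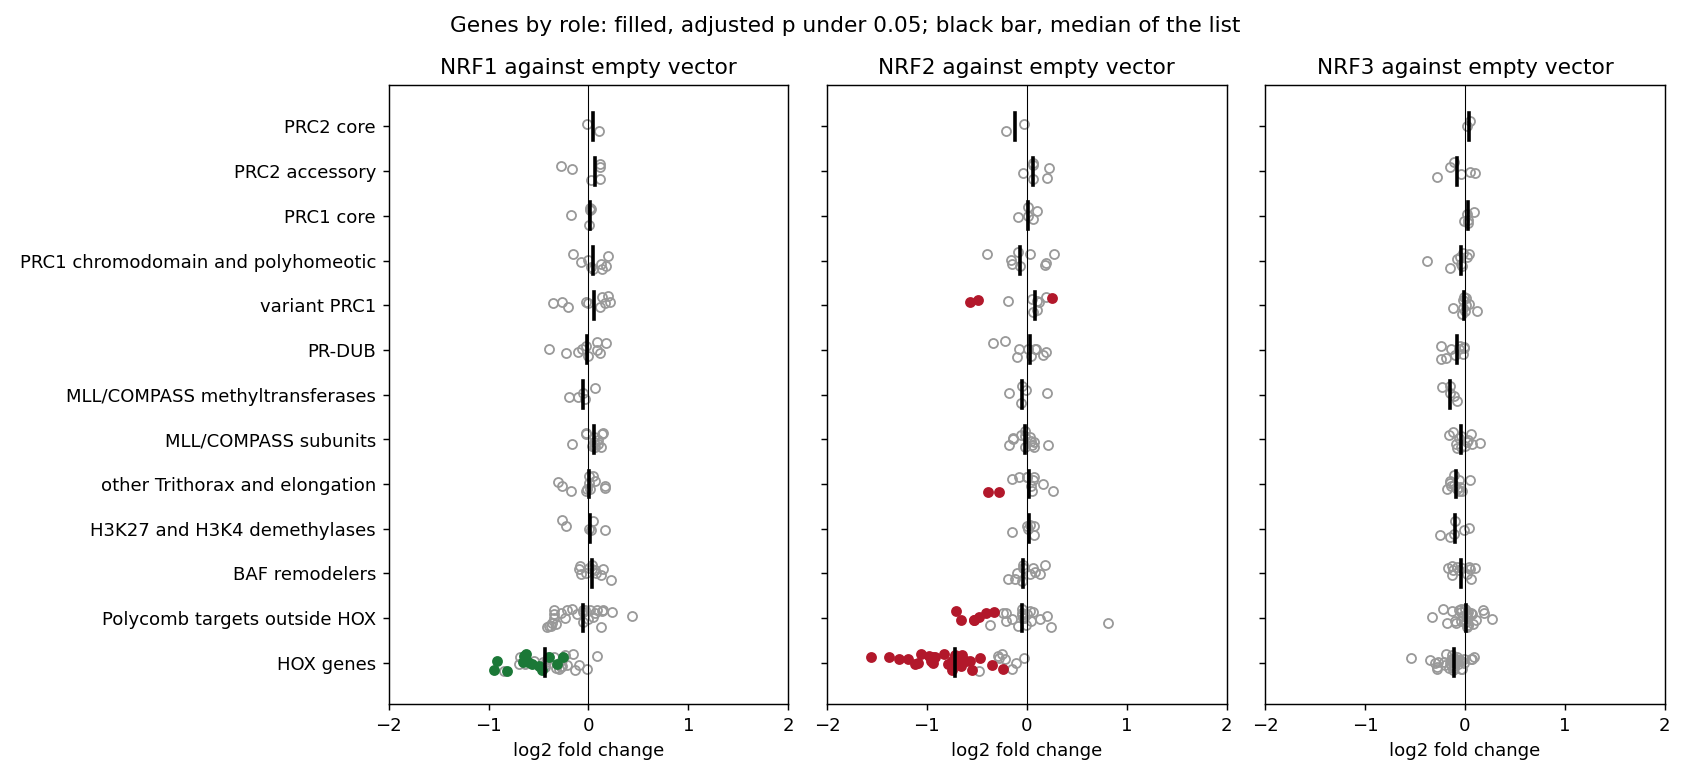
Log2 fold change with NRF1, NRF2 and NRF3 against empty vector (panels) for genes grouped by role (rows, without the 10 regulators), filled where the adjusted p was under 0.05 and with a bar at the median. The Polycomb and Trithorax rows hold 5 filled points, all with NRF2, and 7 Polycomb targets outside HOX are filled with NRF2, while 13 HOX genes are filled with NRF1 and 28 with NRF2, all of them lower.

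The HOX genes were measured in the same libraries. Of 36 tested HOX genes, 13 were called lower with NRF1, 28 with NRF2 and 0 with NRF3, against 1.51%, 5.81% and 0.00661% of all tested genes called lower. The count with NRF1 was 4 to 17 with each of the 12 libraries left out in turn. It was 5, 6 and 4 without empty vector replicate 1, 2 and 3, and 5 and 4 without NRF1 replicate 2 and 3. A fit of only the 2 groups gave 24, and a replicate block gave 8. The count with NRF2 was 23 to 28 over the same libraries. The median log2 fold change of the HOX genes was -0.43, -0.72 and -0.11, beside medians of -0.07, -0.06 and -0.03 for the 9 tested regulators. HOXD9, for instance, averaged 6.41 ± 0.78 CPM with NRF2 and 18.9 ± 0.82 with empty vector (SD, n = 3 each), a log2 fold change of -1.56 (edgeR adjusted p = 1.63e-07). HOXA10 and HOXD11 followed, with -0.71 and -0.98.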

How the data were processed

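RNA-seq was measured in 12 HEK293T libraries, 3 for each of NRF1, NRF2, NRF3 and empty vector. RNA was sequenced at BGI and processed by the authors in the DNASTAR Lasergene Genomics Suite on GRCh37.p13; its version and its counting rules were not given in the sources used here. Deposited were the authors' estimated counts of 38019 genes, not normalized between libraries, with 0.009 for no count (45.8% of values), and 5.95% of values from 0.5 up were not whole (tolerance 0.001). Values were rounded to whole counts. The columns named as vehicle were taken as the empty vector libraries.

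The filterByExpr function (minimum count 10) kept 15135 genes, and TMM factors scaled the libraries. A single model of the 4 groups took in every library, with the robust quasi-likelihood method of edgeR (edgeR 4.0.16, R 4.3.3), tested two-sided and adjusted by Benjamini-Hochberg over all tested genes, and the procedure was tested on simulated data. CPM are relative to the scaled totals. Alternatives used DESeq2 1.42.0, limma 3.58.1, other scalings and filters, a fit of 2 groups, a replicate block, removal of the transfected genes, and each library left out. Figures were drawn with matplotlib 3.10.9.

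The members and gene lists were chosen with earlier results of these data known. Named genes are the 10 regulators, up to 4 called genes of each pathway list with the smallest adjusted p per comparison with empty vector, and up to 3 of each list given for context (HOX genes, other Polycomb targets, proliferation) with NRF2. Genes that the rule names but that were left out for a reason other than their values are not reported here. COMMD3 and COMMD3-BMI1 were named after their values were seen. Transcript lengths, found for 13406 tested genes, and exon overlaps came from GENCODE v29 (GRCh38), which is not the build of the counts, and promoter windows from RefSeq (GRCh38.p14). Replicate numbers did not pair the libraries (18 correlations of deviations from -0.258 to 0.0840), so they were not used as a block. No protein sequences were analysed here.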

Additional observations from a re-analysis of the deposited data

How the results depend on the processing

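Of 1242 fold changes of the regulators under the alternatives, 1234 stayed on the same side of the threshold and 8 passed it, and no called value changed sign. Under DESeq2, NRF1 gave 1 lower pathway gene (0 in the main analysis) and NRF2 gave 0 higher ones (1), and upper quartile scaling also gave 1 lower with NRF1. With no filter on low counts, or with the replicate number as a block, 0 pathway genes were higher with NRF2, and the block called 0 of the 9 regulators. A fit of only the 2 compared groups gave 1 higher and 1 lower regulator with NRF1 and 1 lower with NRF2, and, of 90 pathway genes, 6 higher and 7 lower with NRF1 and 2 higher and 6 lower with NRF2, while it called 12.9% of all genes with NRF1 and 18% with NRF2. The voom fit of limma with group weights gave 1 higher regulator with NRF1 and 1 lower with NRF2, and 2 higher and 6 lower pathway genes with NRF1 and 1 higher and 7 lower with NRF2, while it called 10.1% of all genes with NRF1 and 17.4% with NRF2. Leaving out each library gave 0 to 1 regulators lower with NRF2, 0 to 1 higher for NRF2 against NRF3 and 0 to 1 for NRF1 against NRF3 (each 1 without NRF3 replicate 2), and 0 to 1 pathway genes higher and 1 to 6 lower with NRF2 and 0 to 1 lower with NRF1. The cause of these differences was not tested. COMMD3-BMI1 was no longer called between NRF2 and NRF3 in the fit of 2 groups (adjusted p = 0.161), with the block (0.0515), with limma (0.0827), and without NRF2 replicate 2 (0.0585) or 3 (0.0956). Depth limits mainly EZH1, with 115 to 152 counts per library.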

Other observations

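Polycomb targets outside the HOX clusters were not called with NRF1 or NRF3 (0 of 27 tested), where 1.75% and 0.0264% of all genes were. With NRF2 7 of 27 were lower and 0 higher (25.9%, against 5.81% of all genes called lower). FOXC1, a forkhead factor of mesoderm, averaged 70.8 ± 9.82 CPM with NRF2 and 115 ± 4.28 with empty vector (SD, n = 3 each; log2 fold change -0.70, edgeR adjusted p = 0.000372). SOX2, a factor of stem and neural progenitor cells, averaged 10.2 ± 0.66 CPM with NRF2 and 14.2 ± 1.38 with empty vector (-0.47, edgeR adjusted p = 0.0147), and was not called without empty vector replicate 3 (0.0860) or NRF2 replicate 3 (0.0677). In the NRF1 comparison SOX2 was at -0.42 (edgeR adjusted p = 0.0768) and FOXC1 at -0.16 (0.449). NRF2 and NRF1 differed by -0.06 for SOX2 (0.922). For FOXC1 they differed by -0.54 (0.0101), a call that held in 19 of 23 alternative settings. The median over the 27 was -0.05 with NRF2, beside 0.00 for all tested genes.

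Of 19 proliferation genes, 2 were called lower with NRF2 (10.5%, against 5.81% of all genes called lower). With NRF1 and NRF3 0 of 19 were called, where 1.75% and 0.0264% of all genes were. TOP2A, the topoisomerase of dividing cells, averaged 438 ± 23.9 CPM with NRF2 and 543 ± 26.8 with empty vector (log2 fold change -0.31, edgeR adjusted p = 0.0406). E2F2, a cell cycle transcription factor, averaged 10.7 ± 1.10 CPM with NRF2 and 14.7 ± 1.18 with empty vector (-0.45, edgeR adjusted p = 0.0184). In the NRF1 comparison TOP2A was at -0.15 (edgeR adjusted p = 0.435) and E2F2 at -0.31 (0.172). Neither was called between NRF2 and NRF1 (edgeR adjusted p = 0.567 for TOP2A and 0.739 for E2F2). All 19 had a negative log2 fold change with NRF2, with a median of -0.12. With NRF1 10 of the 19 were positive and 9 negative, with a median of 0.04. Between NRF2 and NRF1 all 19 were negative, with a median of -0.16, and 0 were called. TOP2A was called in 13 of 23 alternative settings and E2F2 in 20 of 23, and E2F2 was lost without empty vector replicate 2 (adjusted p = 0.0921) or NRF2 replicate 2 (0.0855) or 3 (0.0620). TOP2A was lost without any library of empty vector or NRF2 and without NRF1 replicate 2 or 3 or NRF3 replicate 1, with adjusted p of 0.0513 to 0.156.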
